A study of Mus musculus with 12 samples.

Results

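Hepcidin and 9 other genes of iron handling were examined in mouse liver RNA-seq of 12 mice, as the members of a list drawn up by gene symbol: Hamp and Hamp2, Tfrc and Tfr2, Trf, Steap4, Slc39a14, Slc40a1, and Fth1 and Ftl1. All 10 were found among the 46078 gene identifiers of the count table, and all 10 passed the filter on low counts that left 13054 genes for testing. The mice were C57BL/6 (C57BL/6J in the study's methods) males aged 21 weeks with diet-induced obesity on a high fat diet, and every group underwent an operation. Sham-Ad lib mice had sham surgery and unrestricted food, Sham-WM mice (sham cal res in the labels) had sham surgery and food restriction to the weight of the sleeve mice, and VSG mice had a sleeve gastrectomy, in which most of the stomach is removed, with 4 livers sequenced per group. No gene was deleted or introduced. A liver RNA value is the sum over all cells of the tissue, so fewer cells of a type and less RNA per cell cannot be told apart.

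The liver sets the iron balance of the body. Its hepatocytes secrete hepcidin, a peptide hormone that binds the iron exporter ferroportin and has it degraded, and they raise hepcidin transcription when BMP and SMAD signals report high iron or when interleukin-6 acts through STAT3. Iron circulates on transferrin, enters cells through transferrin receptors, is reduced by STEAP enzymes, is stored in ferritin and leaves through ferroportin, and iron-regulatory proteins tune the transferrin receptor and ferritin mRNAs to the iron inside the cell. Liver macrophages, the Kupffer cells, recycle iron from old red blood cells.

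Library totals ran from 15122520 to 19384076 counts. The member with the fewest reads, Hamp2, had 86 counts in its lowest library, and the largest count of any member was 54787, for Trf. Libraries were placed in groups by the animal number shared by the library name and the sample title. A second label field pairs 8 of the 12 libraries with another group, and no member passed the test in any comparison when that field was used instead. The index numbers in the library names form a separate run for each group, and any batch effect tied to them cannot be told apart from treatment. All 6 hepatocyte markers were detected in every group. The 3 comparisons below share groups, so they are not independent of each other.

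Tfrc, the transferrin receptor of most cells, was the member with the widest change. Its level was 5.63-fold higher in Sham-WM than in Sham-Ad lib and 3.93-fold lower in VSG than in Sham-WM. Trf, Steap4 and Slc40a1 were each higher in VSG than in Sham-WM. Levels of the hepcidin genes differed widely between mice of 1 group, most of all for Hamp in VSG, and with all 12 libraries in the fit no comparison of either gene passed the test. Hamp passed in Sham-WM against Sham-Ad lib when only those 8 libraries were fitted. No member passed in VSG against Sham-Ad lib.

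Counted over the list, 0 of 10 members had an adjusted p under 0.05 in VSG against Sham-Ad lib by edgeR's quasi-likelihood test, where 0.751% of all genes did, and 2, Hamp2 and Trf, had an unadjusted p under 0.05, where 24.1% of all genes did. DESeq2 called 1 member in that comparison, Trf. In Sham-WM against Sham-Ad lib 1 member passed, Tfrc, which rose, beside 6.99% of all genes in either direction and 3.53% that were higher. At an unadjusted p under 0.05 there were 3 members, Tfrc, Slc40a1 and Tfr2, beside 21.6% of all genes. In VSG against Sham-WM 4 members passed, beside 26.9% of all genes: Trf, Steap4 and Slc40a1 rose, beside 15.0% of all genes that were higher, and Tfrc fell, beside 11.9% that were lower. With the unadjusted p there were 5, Tfr2 being the other, beside 40.4% of all genes. The mice of the 2 groups did not overlap at all for 0, 2 and 4 members in these comparisons, beside 9.21, 17.6 and 26.2% of all genes. The members' median log2 fold change was 0.19 in VSG against Sham-Ad lib, -0.21 in Sham-WM against Sham-Ad lib and 0.29 in VSG against Sham-WM, beside medians over all genes of 0.028, 0.00079 and 0.029.

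**Figure D1:**
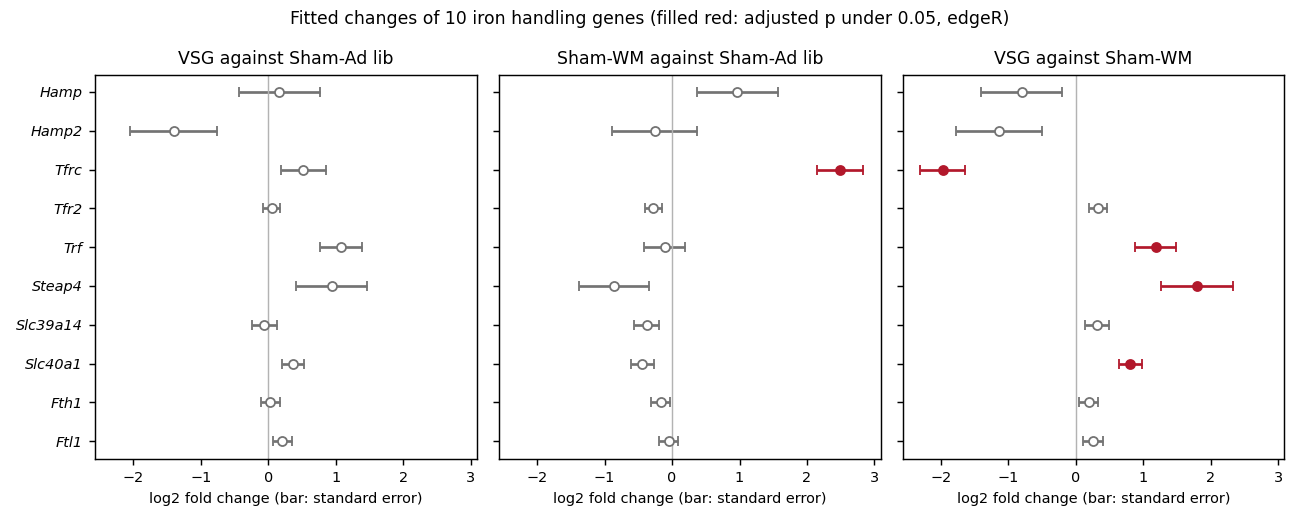
Log2 fold change of each of the 10 genes in the 3 comparisons (x axis; bars are the standard error of the fit), with filled red points for an adjusted p under 0.05 by edgeR. Tfrc is filled on the right at 2.49 in Sham-WM against Sham-Ad lib and on the left at -1.97 in VSG against Sham-WM, and Trf, Steap4 and Slc40a1 are filled on the right in VSG against Sham-WM.

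Hamp and Hamp2 encode the hepcidins of the mouse. Hamp (ENSMUSG00000050440) is the gene whose peptide acts as the iron hormone, and Hamp2 (ENSMUSG00000056978) is its neighbouring copy, which is not known to share that action. On mm10 Hamp lies at chr7:30942368-30944032 and Hamp2 at chr7:30922372-30924681, both on the minus strand. Their promoters are shown because BMP and interleukin-6 signals reach hepcidin through them, and because the pair behaved differently between mice. The letters are the 250 bases upstream of each RefSeq transcript start (GRCm38.p6, read on the gene's strand), chr7:30944030-30944279 for Hamp and chr7:30924182-30924431 for Hamp2. The Hamp window ends with 3 bases that the GENCODE M21 annotation counts as its first exon, and the Hamp2 window lies outside annotated exons. Capitals mark GGCGCC, the core of the BMP-responsive element, and TTCNNNGAA, the palindrome that STAT factors bind. Both patterns read the same on either strand and do not overlap each other.
Hamp: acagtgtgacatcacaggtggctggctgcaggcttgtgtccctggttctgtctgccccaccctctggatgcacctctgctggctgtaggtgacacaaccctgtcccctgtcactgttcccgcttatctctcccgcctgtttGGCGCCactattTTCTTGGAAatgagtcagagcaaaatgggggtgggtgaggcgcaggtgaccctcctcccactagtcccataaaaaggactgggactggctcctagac
Hamp2: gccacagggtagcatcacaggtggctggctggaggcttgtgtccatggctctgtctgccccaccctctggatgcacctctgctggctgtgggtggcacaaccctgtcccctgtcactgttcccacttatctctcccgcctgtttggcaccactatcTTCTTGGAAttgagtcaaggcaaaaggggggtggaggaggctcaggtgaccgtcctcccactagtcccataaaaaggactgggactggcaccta

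GGCGCC begins at base 142 of the Hamp window and is not in these letters of Hamp2. The windows aligned over 247 bases with 227 identical, 91.9%, and 20 differing. One of the differences, G145A, with the Hamp base first, its position counted from 1 at the 5′ end of the Hamp window and the Hamp2 base last, falls inside the capitals of Hamp. TTCTTGGAA is in both, 97 to 89 bases before the start in Hamp and 94 to 86 bases before it in Hamp2. Among 32851 RefSeq windows of this length, 9.59% held GGCGCC and 7.02% held TTCNNNGAA. Of the 7 members with an entry, Hamp and Tfrc held the former and Hamp, Hamp2 and Steap4 the latter. A match of letters is not evidence that a factor binds.

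Values of each gene are given as TMM-normalized CPM, each count relative to the size of its library, in the order of mice 3F, 4F, 6F and 10F for Sham-Ad lib, 2F, 9F, 15F and 16F for Sham-WM, and 1F, 8F, 11F and 18F for VSG. Hamp measured 236, 258, 154 and 199.7 CPM in Sham-Ad lib, 426, 248, 410.5 and 569.7 CPM in Sham-WM, and 180.2, 623, 111.6 and 33.8 CPM in VSG. The Sham-WM mice lay at or above the top of the Sham-Ad lib range except 9F, whereas the VSG mice held both the highest and the lowest Hamp level of the study, 18.4-fold apart. Means were 212 ± 45.4, 414 ± 131 and 237 ± 264 CPM (SD, n = 4). Against Sham-Ad lib the log2 fold change was 0.97 (SE 0.60, adjusted p = 0.391, edgeR) in Sham-WM and 0.16 (SE 0.60, adjusted p = 0.886) in VSG, and between VSG and Sham-WM it was -0.80 (SE 0.60, adjusted p = 0.336). The approximate 95% intervals, -0.21 to 2.15 for Sham-WM and -1.01 to 1.34 for VSG, include changes of more than 2-fold, so a difference of that size is not excluded. Mouse 8F set much of the VSG result. Without it Hamp was lower in VSG than in Sham-WM by a log2 fold change of -1.94 (adjusted p = 0.0116, edgeR), and VSG against Sham-Ad lib moved to -0.99. With only the 8 libraries of Sham-WM and Sham-Ad lib in the fit, Hamp passed in that comparison at a log2 fold change of 0.97 (adjusted p = 0.0286).

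Hamp2 measured 32.9, 27.2, 151 and 19.4 CPM in Sham-Ad lib, 35.7, 26.2, 71.8 and 59.3 CPM in Sham-WM, and 5.14, 26.8, 21.9 and 33.4 CPM in VSG. Mouse 6F stood far above the other Sham-Ad lib mice and mouse 1F below all others, and the groups overlapped. The log2 fold change was -1.40 (SE 0.64, adjusted p = 0.204, edgeR) in VSG and -0.26 (SE 0.63, adjusted p = 0.864) in Sham-WM, with Sham-Ad lib as the reference for both, and -1.14 (SE 0.64, adjusted p = 0.198) between VSG and Sham-WM. Without mouse 6F the first 2 became -0.28 and 0.86, neither of which passed.

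The pair did not move together from mouse to mouse. Hamp2 made up 12.3, 9.54, 49.5 and 8.85% of the summed Hamp and Hamp2 counts in Sham-Ad lib, 7.73, 9.53, 14.9 and 9.43% in Sham-WM, and 2.77, 4.12, 16.4 and 49.7% in VSG. In mice 6F and 18F the copy supplied close to as many reads as Hamp itself, with 95% Wilson intervals of 48.2 to 50.8% and 46.9 to 52.6% (counting error only). In mouse 1F its share was lowest, 2.77%, with an interval of 2.25 to 3.41%. The high share came with the highest Hamp2 level of the study in mouse 6F and with the lowest Hamp level in mouse 18F. Group means were 20.05 ± 19.7, 10.4 ± 3.10 and 18.3 ± 21.9% (SD, n = 4), and none of the 3 differences passed a two-sided exact permutation test (p = 0.771 for VSG and 0.543 for Sham-WM against Sham-Ad lib, 0.714 between VSG and Sham-WM). Reads that fit both genes could have been dropped or assigned to either by the counting, so the split is uncertain to that extent.

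**Figure D2:**
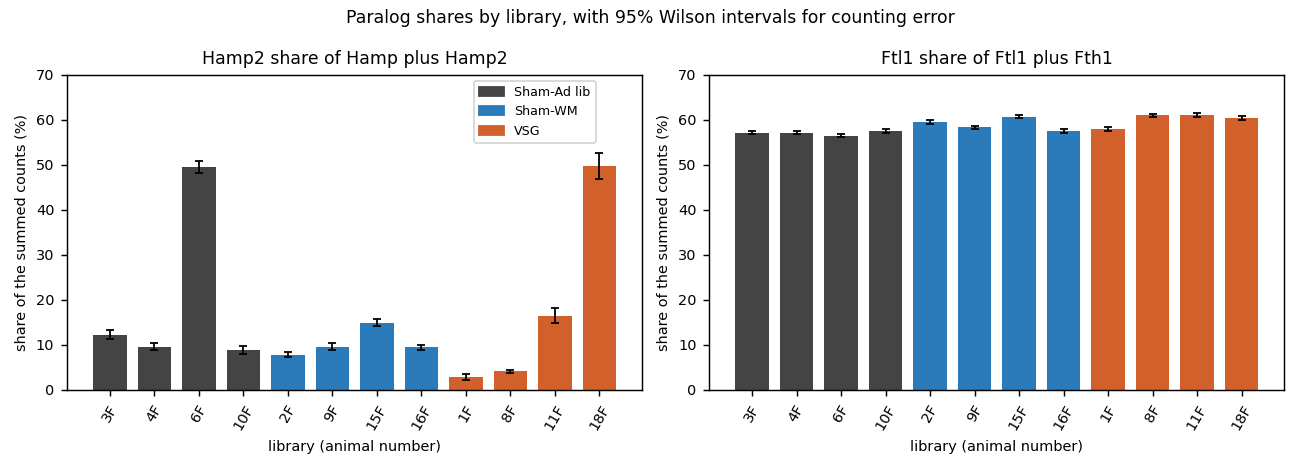
Hamp2 as a percentage of Hamp plus Hamp2 counts (left) and Ftl1 as a percentage of Ftl1 plus Fth1 counts (right), 1 bar per mouse, with 95% Wilson intervals for counting error. The Hamp2 share reaches 49.5% in Sham-Ad lib mouse 6F and 49.7% in VSG mouse 18F and is 16.4% or less elsewhere, whereas the Ftl1 share stays between 56.4 and 61.0% in all 12 mice.

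Tfrc (ENSMUSG00000022797, chr16:32608920-32632794, plus strand) encodes transferrin receptor 1, which takes up iron-loaded transferrin. It measured 10.4, 24.7, 17.1 and 10.2 CPM in Sham-Ad lib, 49.2, 67.5, 106.3 and 129 CPM in Sham-WM, and 24.1, 17.7, 30.3 and 17.7 CPM in VSG. Every Sham-WM mouse lay above every mouse of the other groups, and the VSG and Sham-Ad lib ranges overlapped. Means were 15.6 ± 6.86, 88.0 ± 36.3 and 22.5 ± 6.03 CPM (SD, n = 4). Tfrc rose in Sham-WM against Sham-Ad lib by 2.49 on the log2 scale (SE 0.34, adjusted p = 0.00123, edgeR) and fell by 1.97 in VSG against Sham-WM (SE 0.34, adjusted p = 0.00194). Between VSG and Sham-Ad lib the log2 fold change was 0.52 (SE 0.33, adjusted p = 0.355), with an approximate 95% interval of -0.14 to 1.17. Both calls held in all 12 fits that left out 1 mouse, with log2 fold changes from 2.25 to 2.80 and from -2.17 to -1.73. With 2 RUVs factors, which remove variation estimated among the mice of 1 group, the first change stayed past the threshold, and the second was -2.28 with an adjusted p of 0.0530.

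Tfr2 (ENSMUSG00000029716, chr5:137569840-137587481, plus strand) encodes transferrin receptor 2, which in hepatocytes serves as a sensor of transferrin iron upstream of hepcidin. It measured 393, 506, 395 and 503 CPM in Sham-Ad lib, 327, 376, 399.8 and 377 CPM in Sham-WM, and 432, 509, 496 and 422 CPM in VSG. The VSG mice all lay above the Sham-WM mice, while the Sham-Ad lib mice overlapped both groups. The log2 fold change between VSG and Sham-WM was 0.33 (SE 0.13, adjusted p = 0.0705, edgeR) and did not pass, although it did by DESeq2 (adjusted p = 0.0347). Against Sham-Ad lib the values were 0.049 (SE 0.13, adjusted p = 0.838) for VSG and -0.28 (SE 0.13, adjusted p = 0.221) for Sham-WM. The 2 receptors thus went opposite ways in Sham-WM against Sham-Ad lib on the point estimates, and only the value of Tfrc passed the test.

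Trf (ENSMUSG00000032554, chr9:103204001-103230444, minus strand) encodes transferrin, the iron carrier of plasma, which hepatocytes secrete. It measured 679, 1136, 720.0 and 1147 CPM in Sham-Ad lib, 859, 934, 773 and 852 CPM in Sham-WM, and 3273, 1377, 2103 and 1017 CPM in VSG. Every VSG mouse lay above every Sham-WM mouse, and mouse 18F lay within the Sham-Ad lib range. Means were 921 ± 256, 854 ± 65.4 and 1942 ± 996 CPM (SD, n = 4). Trf rose by 1.18 on the log2 scale in VSG against Sham-WM (SE 0.31, adjusted p = 0.0140, edgeR), a fold of 2.27. In VSG against Sham-Ad lib the log2 fold change was 1.08 (SE 0.30, adjusted p = 0.0744), which passed by DESeq2 at 1.06 (adjusted p = 0.0105), and in Sham-WM it was -0.11 (SE 0.30, adjusted p = 0.887). The rise over Sham-WM passed in all 12 fits that left out 1 mouse and was smallest without mouse 1F, at 0.81. With 2 RUVs factors it was -0.038 and was not called, and the cause was not tested.

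Steap4 (ENSMUSG00000012428, chr5:7960457-7982213, plus strand) encodes a metalloreductase that reduces iron and copper and that inflammatory signals are known to raise. Its promoter is shown for the STAT palindrome, which it shares with the hepcidin pair. The letters are the 250 bases before the RefSeq start, chr5:7960222-7960471 on the plus strand of GRCm38.p6, with the palindrome in capitals from base 135 of the window. The last 15 bases lie in the first exon of the GENCODE annotation.
Steap4: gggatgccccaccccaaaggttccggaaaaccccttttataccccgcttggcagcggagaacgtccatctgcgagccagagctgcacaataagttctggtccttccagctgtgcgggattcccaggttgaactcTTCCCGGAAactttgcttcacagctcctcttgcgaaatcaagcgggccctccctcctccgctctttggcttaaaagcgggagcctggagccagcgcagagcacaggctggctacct

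Steap4 measured 144, 674, 169 and 204 CPM in Sham-Ad lib, 173, 171, 158 and 154 CPM in Sham-WM, and 986, 818, 245 and 237 CPM in VSG. Every VSG mouse lay above every Sham-WM mouse, with 2 mice far above the other 2, and Sham-Ad lib mouse 4F stood well above the rest of its group. Steap4 was the member with the narrowest spread for its mean in Sham-WM apart from Fth1, with a mean of 164 ± 9.54 CPM, against 298 ± 252 CPM in Sham-Ad lib and 572 ± 388 CPM in VSG (SD, n = 4). It rose by 1.80 on the log2 scale in VSG against Sham-WM (SE 0.53, adjusted p = 0.0263, edgeR). Against unrestricted sham mice the value was 0.94 for VSG (SE 0.52, adjusted p = 0.287) and -0.86 for Sham-WM (SE 0.52, adjusted p = 0.376). The call in VSG against Sham-WM held in 6 of the 12 fits that left out 1 mouse. In 4 of those 6 the mouse left out was from Sham-Ad lib, a group outside this comparison. It was lost without any 1 of the 4 Sham-WM mice (adjusted p = 0.0516, 0.0538, 0.0652 and 0.0673 on leaving out 2F, 9F, 15F and 16F) and on leaving out VSG mouse 1F (1.40, adjusted p = 0.0818) or 8F (1.58, adjusted p = 0.0578). With 2 RUVs factors the value was -0.023. Without Sham-Ad lib mouse 4F, VSG against Sham-Ad lib passed at 1.73 (adjusted p = 0.0366).

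Slc39a14 (ENSMUSG00000022094, chr14:70303469-70351425, minus strand) encodes ZIP14, which imports iron that is not bound to transferrin. It measured 236, 324, 242 and 249 CPM in Sham-Ad lib, 178, 188, 220.3 and 223 CPM in Sham-WM, and 242, 349, 176 and 239.9 CPM in VSG. The Sham-WM mice all lay below the Sham-Ad lib mice, and the VSG mice spanned both. Even so the log2 fold change of -0.38 in Sham-WM against Sham-Ad lib did not pass (SE 0.18, adjusted p = 0.254, edgeR), nor did VSG against Sham-Ad lib at -0.062 (SE 0.18, adjusted p = 0.859) or VSG against Sham-WM at 0.32 (SE 0.18, adjusted p = 0.213). Steap4 and Slc39a14 shared some of their high mice. Mouse 4F was the top Sham-Ad lib mouse for both, and 8F was the top VSG mouse for Slc39a14 and the runner-up for Steap4. Mouse 1F, with the highest Steap4 of all, had 242 CPM of Slc39a14, within the Sham-Ad lib range.

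Slc40a1 (ENSMUSG00000025993, chr1:45908068-45926523, minus strand) encodes ferroportin, the exporter that hepcidin removes from the cell surface. It measured 185, 136, 159 and 154 CPM in Sham-Ad lib, 105.6, 102, 152 and 108.1 CPM in Sham-WM, and 254, 212, 152 and 199.9 CPM in VSG. The Sham-Ad lib mean lay between the others, and VSG and Sham-WM overlapped only through mice 11F and 15F. Means were 159 ± 20.4, 117 ± 23.5 and 204 ± 42.0 CPM (SD, n = 4). Slc40a1 rose by 0.80 on the log2 scale in VSG against Sham-WM (SE 0.17, adjusted p = 0.00553, edgeR), a fold of 1.75, and this held in all 12 fits that left out 1 mouse (0.68 to 0.95) and with 2 RUVs factors (0.92, adjusted p = 0.0457). Neither value against Sham-Ad lib passed, 0.36 (SE 0.17, adjusted p = 0.208) for VSG and -0.44 (SE 0.17, adjusted p = 0.145) for Sham-WM.

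Fth1 (ENSMUSG00000024661, chr19:9980598-9985098, plus strand) and Ftl1 (ENSMUSG00000050708, chr7:45457944-45459884, minus strand) encode the heavy and light chains of ferritin, the heavy chain carrying the site that oxidises iron for storage. Fth1 measured 1471, 1538, 1805 and 1534 CPM in Sham-Ad lib, 1376, 1355, 1453 and 1475 CPM in Sham-WM, and 1759.8, 1309, 1911 and 1484 CPM in VSG. Ftl1 measured 1958, 2045, 2339 and 2075 CPM in Sham-Ad lib, 2016, 1894, 2241 and 1993 CPM in Sham-WM, and 2418, 2043, 2996 and 2260.2 CPM in VSG. The groups overlapped for both chains. Their log2 fold changes lay between -0.17 and 0.25 in the 3 comparisons, with adjusted p from 0.199 to 0.923 (edgeR). For VSG against Sham-WM the approximate 95% intervals were -0.083 to 0.47 for Fth1 and -0.025 to 0.53 for Ftl1, so a 2-fold rise of either mRNA lies outside them.

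The balance of the chains was nearly constant. Ftl1 made up 57.1, 57.1, 56.4 and 57.5% of the summed ferritin counts in Sham-Ad lib, 59.4, 58.3, 60.7 and 57.5% in Sham-WM, and 57.9, 61.0, 61.0 and 60.4% in VSG. The VSG mice all lay above the Sham-Ad lib mice, and Sham-WM overlapped with VSG. The mean difference was 3.03 percentage points between VSG and Sham-Ad lib (60.1 ± 1.49 against 57.0 ± 0.436%, SD, n = 4; two-sided exact permutation p = 0.0286, the smallest that 4 against 4 can give), and 0.171 after adjustment over the 6 share tests made. Sham-WM exceeded Sham-Ad lib by 1.94 points (p = 0.0571, exact permutation test) and VSG exceeded Sham-WM by 1.09 points (p = 0.314, exact permutation test). None of the 3 passed after adjustment. Because even the smallest possible p became 0.171 over the 6 tests, the adjusted values could not decide whether the share differed.

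**Figure D3:**
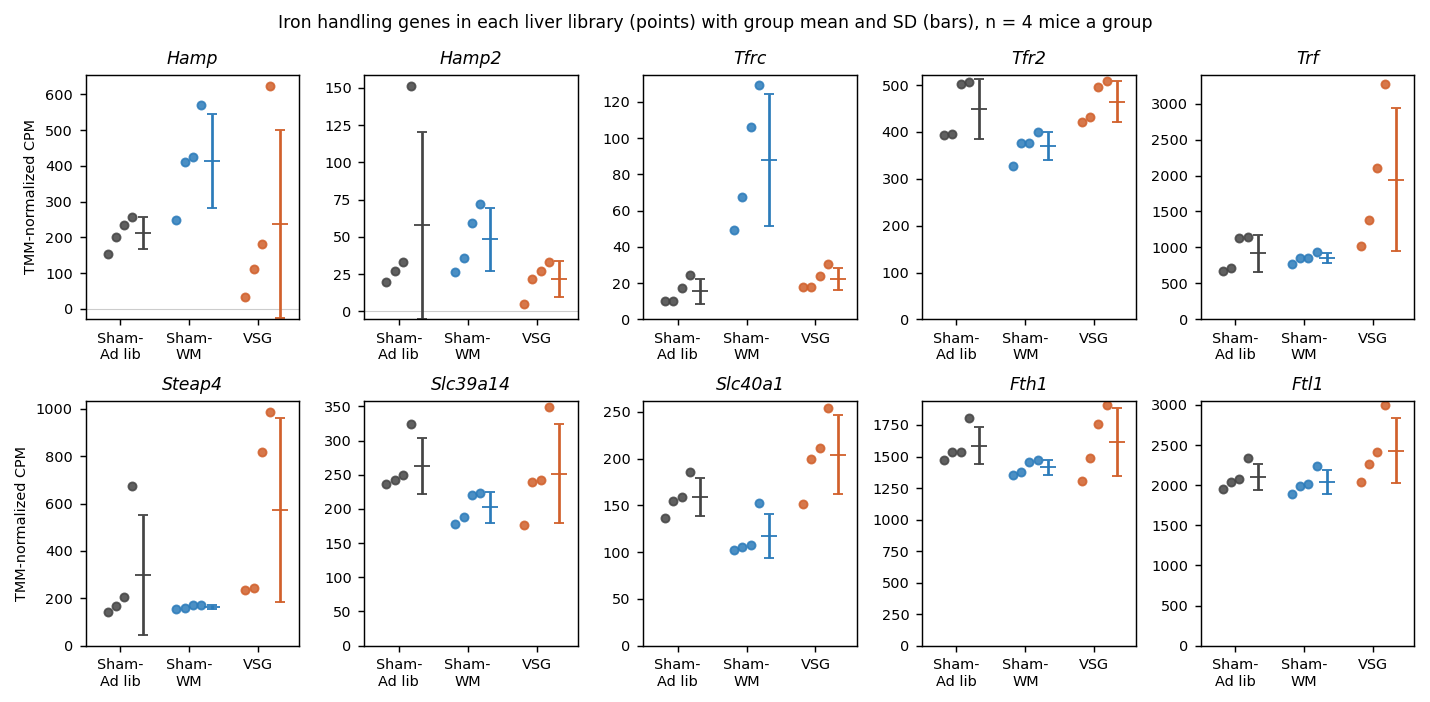
TMM-normalized CPM (y axis, linear, each panel with its own scale) of the 10 genes in each mouse (points, ordered by value within a group) with the group mean and SD (bars, n = 4). Tfrc in Sham-WM lies above all other mice, Trf, Steap4 and Tfr2 in VSG lie above all Sham-WM mice, and Hamp in VSG spans 33.8 to 623 CPM.

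Levels of different genes were set side by side as CPM per kilobase of annotated exon, a rough scale. The length was the union of all annotated exons of a gene, at 3469 bases for Fth1, 1340 for Ftl1 and 9000 for Slc40a1. It can exceed the length of the liver mRNA, and by a different factor for each gene. The order below therefore depends on the annotation. In Sham-Ad lib Ftl1 stood highest at 1570.5 ± 123, followed by Hamp at 516 ± 110.7 and Fth1 at 457 ± 42.9, which did not differ beyond their spread. Trf came next at 277 ± 77.0 CPM per kilobase, then Tfr2 at 103.6 ± 14.7, Hamp2 at 98.9 ± 107.3 and Steap4 at 94.4 ± 79.9, which could not be put in order. Slc39a14 at 24.9 ± 3.88 stood above Slc40a1 at 17.6 ± 2.27, and Tfrc was lowest at 2.52 ± 1.11 CPM per kilobase (SD, n = 4 for each). In Sham-WM Tfrc reached 14.2 ± 5.87 CPM per kilobase and no longer differed beyond the spread from Slc40a1, at 13.0 ± 2.61.

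The other genes came from 6 lists of iron metabolism by function and 1 list of acute phase proteins, the plasma proteins that the liver makes in inflammation. Outside the members the lists held 90 genes, of which 86 could be tested. By edgeR none of them passed in VSG against Sham-Ad lib, where 30 had an unadjusted p under 0.05 and DESeq2 called 12. By edgeR 1 was higher and 5 were lower in Sham-WM against Sham-Ad lib, and 28 were higher and 9 lower in VSG against Sham-WM, where 15.0% of all genes were higher and 11.9% lower. In Sham-WM against Sham-Ad lib the shares of all genes were 3.53% higher and 3.45% lower. The lists were chosen with earlier results of these data known, so their counts are not independent of those results. These counts pool the iron lists with the acute phase list, which held 14 of the genes tested. In VSG against Sham-WM that list gave 12 of the 28 higher genes and 0 of the 9 lower ones. It gave 4 of the 5 genes that were lower in Sham-WM against Sham-Ad lib.

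Upstream of hepcidin, the BMP and SMAD list had 19 genes tested, with 1 higher and 5 lower in VSG against Sham-WM and a median log2 fold change of -0.30. Over all genes 15.0% were higher and 11.9% lower in that comparison. The ligands Bmp6 and Bmp2, which the endothelium of the liver makes and which drive hepcidin, fell by 1.01 (adjusted p = 0.0275, edgeR) and 0.94 (adjusted p = 0.0376). Their receptors Acvr2a (log2 fold change -0.73, adjusted p = 0.0110) and Bmpr1a (-0.39, adjusted p = 0.0342) and the signal carrier Smad5 (-0.34, adjusted p = 0.0291) fell as well. For Bmp6, Bmp2 and Smad5 every Sham-WM mouse lay above every Sham-Ad lib mouse, while the VSG mice overlapped Sham-Ad lib. Relative to Sham-Ad lib their log2 fold changes were 0.70, 0.59 and 0.26 for Sham-WM and -0.31, -0.35 and -0.084 for VSG. Acvr2a was at 0.29 and -0.44 and Bmpr1a at 0.20 and -0.20, with overlap in each. None of these values passed (adjusted p from 0.160 to 0.646, edgeR). Bmp6 was low throughout, with group means from 1.75 to 3.57 CPM. Fgl1, a liver protein known to restrain BMP signals, rose by 2.34 (adjusted p = 0.00355), from a mean of 363 ± 91.6 CPM in Sham-WM to 1836 ± 750.3 CPM in VSG (SD, n = 4). Its Sham-Ad lib mean lay between them, at 824 ± 540 CPM. Against Sham-Ad lib, Fgl1 was at -1.18 in Sham-WM (adjusted p = 0.131, edgeR) and 1.16 in VSG (adjusted p = 0.139), and neither passed. In Sham-WM against Sham-Ad lib 1 gene of the list rose, Smad7, a feedback inhibitor of SMAD signals (log2 fold change 0.79, adjusted p = 0.0465), which was named after its values were seen. It missed the threshold without any 1 of 3F, 4F, 6F, 9F, 15F, 16F, 1F or 18F (adjusted p up to 0.145) and with DESeq2 or upper quartile size factors or no filter in edgeR (0.0503 to 0.0566). Acvr2a and Fgl1 passed in VSG against Sham-WM in every fit that left out 1 mouse, but neither kept that call with 2 RUVs factors. Bmp2 did not pass without any 1 of 2F, 9F, 15F, 16F, 1F, 8F or 11F (adjusted p up to 0.0915), Bmp6 without 9F, 15F or 1F (up to 0.0722), Bmpr1a without 9F, 15F, 16F, 1F or 11F (up to 0.0883) and Smad5 without 15F, 16F, 1F or 11F (up to 0.0734).

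The interleukin-6 and STAT3 list had 10 genes tested, of which 2 rose in VSG against Sham-WM and none fell, with a median of 0.24. Among all genes 15.0% were higher and 11.9% lower there, so the 2 of 10 were near the general share. Il6ra, the interleukin-6 receptor, fell in Sham-WM against Sham-Ad lib by 0.82 (adjusted p = 0.0163, edgeR) and was higher in VSG than in Sham-WM by 0.73 (adjusted p = 0.0107). Its mean was 87.7 ± 7.19 CPM in Sham-Ad lib, 49.7 ± 11.3 CPM in Sham-WM and 82.6 ± 19.7 CPM in VSG (SD, n = 4). Socs3, the feedback inhibitor that STAT3 induces, rose by 1.78 in VSG against Sham-WM (adjusted p = 0.0365). The fall of Il6ra missed the threshold without 15F (adjusted p = 0.0612) or 16F (0.0607), and the rise of Socs3 without any 1 of 2F, 9F, 16F, 1F, 8F or 11F (up to 0.0935).

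The acute phase list had 14 genes tested, with a median log2 fold change of 2.17 in VSG against Sham-WM, beside 0.029 over all genes. Since the list was chosen with earlier results of these data known, that contrast is not independent support. In this comparison 12 of the 14 rose, where 15.0% of all genes did, and none fell. Among them Orm2 rose by 6.61 (adjusted p = 0.00365, edgeR), Il1rn, the interleukin-1 receptor antagonist, by 3.56 (adjusted p = 0.000413), Orm1 by 2.73, Lbp, which binds endotoxin, by 2.24, Serpina3n by 1.30 and Fgb, a fibrinogen chain, by 1.15. In Sham-WM against Sham-Ad lib 4 fell, Saa1, Saa2, Serpina3n and Il1rn. Serpina3n missed the threshold in that comparison without any 1 of 4F, 10F, 2F, 9F, 15F or 16F (adjusted p up to 0.118), and Il1rn, at a log2 fold change of -2.31 with all mice, passed in every such fit, at -2.53 to -1.85. Saa1 (-4.64, adjusted p = 0.0427) and Saa2 (-6.01, adjusted p = 0.0352), serum amyloid genes named after their values were seen, are close copies whose reads may be shared. Saa1 missed the threshold without any 1 of 4F, 6F, 10F, 9F, 15F, 16F, 1F or 8F (adjusted p up to 0.127), and Saa2 without any 1 of 4F, 10F, 9F, 15F or 16F (up to 0.1124). Hamp is itself counted as an acute phase gene, and its own log2 fold change in VSG against Sham-WM was -0.80 (adjusted p = 0.336).

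The uptake and export list had 17 genes tested, 4 of the 10 members among those that passed, with 7 higher and 2 lower in VSG against Sham-WM. For this list and the storage list below, the shares of all genes were 15.0% higher and 11.9% lower. Lcn2, a protein that binds bacterial iron carriers, rose by 6.35 (adjusted p = 0.00367, edgeR), from 18.6 ± 18.5 CPM in Sham-WM to 1517 ± 1442 CPM in VSG (SD, n = 4). Sham-Ad lib lay between them, at 219 ± 203 CPM. Against Sham-Ad lib, Lcn2 was at -3.56 in Sham-WM (adjusted p = 0.0701, edgeR) and 2.79 in VSG (adjusted p = 0.137), and neither passed. Cp, the plasma ferroxidase ceruloplasmin, which partners ferroportin, rose by 1.08 (adjusted p = 0.00830), and Slc25a28, a mitochondrial iron importer, by 0.35 (adjusted p = 0.0187), the latter missing the threshold without 16F (0.0513). In the storage list of 8 genes, 2 fell in VSG against Sham-WM and none rose: Aco1, which encodes iron-regulatory protein 1, by 0.64 (adjusted p = 0.00274), and Ncoa4, the adaptor that delivers ferritin for breakdown, by 0.33 (adjusted p = 0.0284). The fall of Ncoa4 missed the threshold without 2F, 15F, 16F or 11F (adjusted p up to 0.0789).

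Of 17 genes of heme handling, 7 rose and 1 fell in VSG against Sham-WM. For this list and the iron-sulphur cluster list below, the shares of all genes were 15.0% higher and 11.9% lower. The plasma scavengers Hp, for free haemoglobin, and Hpx, for free heme, rose by 2.28 (adjusted p = 0.00317, edgeR) and 2.09 (adjusted p = 0.00719), and both are also acute phase proteins. Hmox1, the oxygenase that opens heme and frees its iron, rose by 1.78 (adjusted p = 0.00579), Cd163, the macrophage receptor for haptoglobin with haemoglobin, by 1.42 (adjusted p = 0.00612), and Slc48a1, a heme transporter, by 0.41 (adjusted p = 0.00657). Cpox, an enzyme of heme synthesis, fell by 0.62 (adjusted p = 0.00607). In the iron-sulphur cluster list of 10 genes, 2 rose, Hscb by 1.19 (adjusted p = 0.0105) and Lyrm4 by 0.54 (adjusted p = 0.0311), the latter losing its call without any 1 of 2F, 9F, 15F, 16F, 1F or 11F (adjusted p up to 0.0783). Of 27 named list genes called in VSG against Sham-WM, 2 kept the call with 2 RUVs factors, Cd163 and Il1rn, and all 3 called in Sham-WM against Sham-Ad lib kept it.

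**Figure D4:**
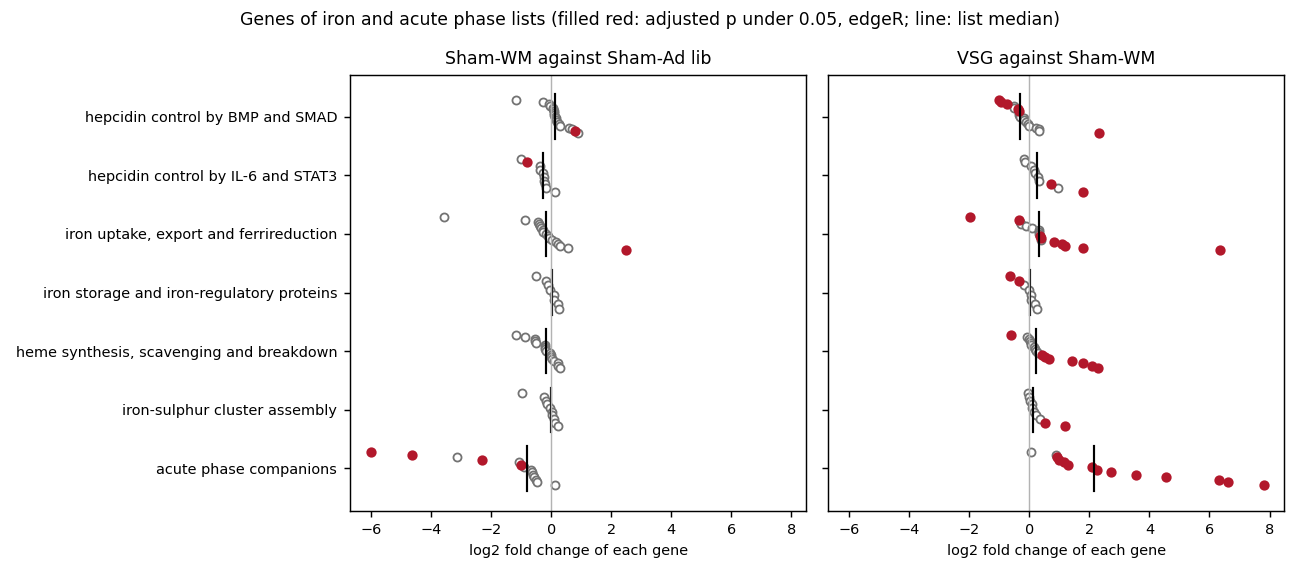
Log2 fold change of each tested gene of the 7 lists (x axis) in Sham-WM against Sham-Ad lib and in VSG against Sham-WM, filled red where the adjusted p was under 0.05 by edgeR, with a line at each list's median. The acute phase list lies to the right in VSG against Sham-WM, with a median of 2.17 and 12 of 14 genes filled, and the BMP and SMAD list has 5 filled genes on the left and 1 on the right.

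The summed markers of Kupffer cells, of neutrophils and of B and plasma cells were higher in all VSG mice than in all other mice. Trf, Steap4 and Slc40a1 did not separate VSG in this way. They were higher in VSG than in Sham-WM, but each overlapped between VSG and Sham-Ad lib. None passed in that second comparison (adjusted p = 0.0744, 0.287 and 0.208, edgeR). Some single markers overlapped between VSG and Sham-Ad lib: Marco, Timd4, Adgre1, Elane, Cd79a and Ms4a1. Ly6g was at 0 in 1 VSG mouse too. The other markers of these lists did not overlap. The summed level of 6 Kupffer cell markers was 113.5 to 376 CPM in Sham-Ad lib, 104.2 to 183 CPM in Sham-WM and 389 to 1118 CPM in VSG. Of 7 neutrophil markers 6, 5 and 7 were detected, with sums of 0.379 to 15.0, 1.12 to 2.34 and 30.1 to 978 CPM, and Ly6g was at 0 in all Sham-Ad lib and Sham-WM mice. The 5 B and plasma cell markers summed to 3.41 to 7.24, 3.53 to 6.27 and 9.16 to 21.4 CPM in the same order of groups. Much of the VSG sum was Jchain, at 5.12 to 16.3 CPM. The groups overlapped for the 6 markers each of T and NK cells (2.33 to 5.52, 2.65 to 6.01 and 4.83 to 9.14 CPM), stellate cells (284 to 383, 269 to 340.5 and 202 to 302 CPM) and sinusoidal endothelial cells (107.5 to 148, 122 to 186 and 98.1 to 182 CPM). Mouse 1F, with the highest Trf, Steap4 and Slc40a1 of all mice, also had the highest Kupffer and neutrophil sums, 1118 and 978 CPM. Sham-Ad lib mouse 4F, with the highest Steap4 of its group, had the highest such sums there, 376 and 15.0 CPM. Its Slc40a1, 136 CPM, was the lowest of that group. Among VSG mice Slc40a1 was lowest in 11F (152 CPM, Kupffer sum 549 CPM), below 18F (199.9 CPM, Kupffer sum 389 CPM). The sum of 6 hepatocyte markers was 103266 to 122409 CPM in Sham-Ad lib, 120875 to 151299 CPM in Sham-WM and 78383 to 120252 CPM in VSG. Red blood cell markers, 7 in all, summed to 281 to 589.9, 151 to 314 and 142 to 732 CPM. The part of these markers in the changes of the members was not tested.

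**Figure D5:**
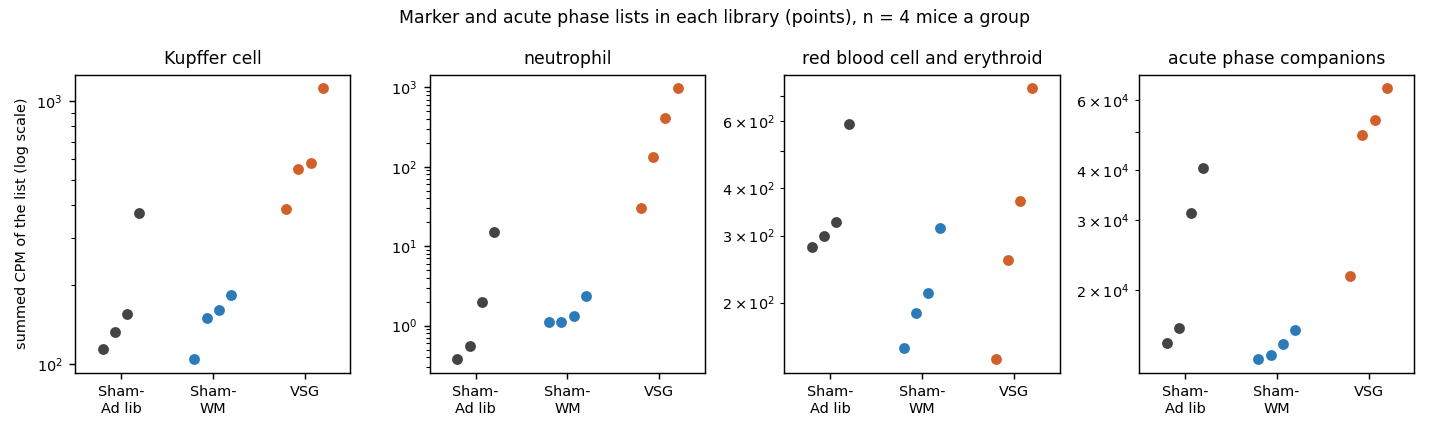
Summed CPM (log axis) of the Kupffer cell, neutrophil, red blood cell and acute phase lists in each mouse (points, ordered by value within a group), n = 4 per group. All VSG mice lie above all other mice for the Kupffer cell and neutrophil sums, whereas the red blood cell sums overlap.

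The genes most like each member were found by the Pearson correlation of log2 CPM over the 12 mice, which share the group differences and the library composition, so the values only describe these libraries. Hamp was most like A730017L22Rik (r = 0.931), Ttll1 (0.904) and Dnajc3 (0.849), and Hamp2 was most like Hao2 (0.924), Polr1b (0.916) and Xdh (0.901). Tfrc was most like Gtf2f1 (0.957), Arhgef19 (0.951) and Rfxank (0.942), and Tfr2 most like Mmp23 (0.931), Ap1g2 (0.929) and Slc30a5 (0.922). Trf followed Mfsd5 (0.958), Spic (0.956), a transcription factor of iron-recycling macrophages, and Capzb (0.955). Steap4 followed St6galnac2 (0.977), Trim30a (0.966) and Tnfrsf21 (0.963). For Slc39a14 the nearest were Lrp1 (0.945), Cbs (0.930) and Pml (0.885), and for Slc40a1 Pik3r2 (0.926), Hpcal1 (0.914) and Mxd1 (0.907). Fth1 was nearest to Msra (0.878) and to the haemoglobin genes Hba-a2 (0.878) and Hbb-bs (0.875), and Ftl1 to Rnaseh2c (0.942), Acyp2 (0.932) and Mthfsl (0.929).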

How the data were processed

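Liver poly(A) RNA of 12 mice was made into directional libraries and sequenced. Per the labels and the methods, the authors aligned reads to mm10 with TopHat2 2.1.1 and counted them per gene with featureCounts. The deposited table holds raw counts for 46078 Ensembl identifiers, without normalization. The annotation release, the strand setting and the treatment of reads mapping to several genes are not given in the sources used here. Symbols, positions and exon lengths were taken from GENCODE M21, which matched 45229 identifiers, and promoter sequences from RefSeq (GRCm38.p6), which held 7 of the 10 members.

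In R 4.3.3 with edgeR 4.0.16, genes were kept by filterByExpr (minimum count 10, minimum total 15), which retained 99.88% or more of every library's counts. A model of 3 group means, with TMM factors, was fitted over the 12 libraries, and contrasts were tested by the quasi-likelihood test, with Benjamini-Hochberg adjustment over all 13054 genes and a threshold of 0.05. Approximate 95% intervals used the normal quantile and the standard error. Log2 CPM for correlations used a prior count of 2. Alternatives were DESeq2 1.42.0, other size factors and filters, RUVs and RUVr factors (2 each, rebuilt here by their published steps, since the study removed unwanted variation with RUVSeq), 2-group fits, groups taken from the second label field, and the omission of single libraries. The procedure was tested on simulated data. Shares of counts were compared by exact permutation tests in SciPy 1.17.1. The p-values of the fits set a group difference against the spread between livers within groups. That spread was estimated over all groups in the fit and drew on all genes. The p-values of the share tests come from exchanging livers between 2 groups.

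The members and lists were chosen with earlier results of these data known. Named genes are all members, up to 6 genes per list with the smallest adjusted p among those past the threshold, and the 3 genes most correlated with each member; Smad7, Saa1 and Saa2 were named after their values were seen. Intervals of shares cover counting error only.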

Additional observations from a re-analysis of the deposited data

Results flagged for a closer look

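In 5 of 36 sets of 4 mice tested, 1 mouse lay far from the other 3 of its group by Dixon's criterion. The criterion marks about 1 in 20 sets by chance only where values are normally distributed and sets independent. The values were linear CPM and shares, and the sets came from the same 12 mice. The 5 of 36 therefore cannot be set against that rate. Hamp2 was 151 CPM in Sham-Ad lib mouse 6F and 19.4 to 32.9 CPM in the others, and its share of the Hamp and Hamp2 counts was 49.5% in that mouse and 8.85 to 12.3% in the others. Steap4 was 674 CPM in Sham-Ad lib mouse 4F and 144 to 204 CPM in the others. Slc39a14 was 324 CPM in the same mouse and 236 to 249 CPM in the others. Slc40a1 was 152 CPM in Sham-WM mouse 15F and 102 to 108.1 CPM in the others.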

How the results depend on the processing

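No paired analysis was possible because the groups share no animal numbers. Leaving out 1 mouse at a time gave 0 to 1089 genes changed in VSG against Sham-Ad lib (98 with all mice), 424 to 1311 in Sham-WM against Sham-Ad lib (912) and 2196 to 3868 in VSG against Sham-WM (3509), with 0 to 1, 1 to 1 and 3 to 4 members. VSG against Sham-Ad lib fell to 0 genes without 6F and rose to 1089 without 18F. In the same order of comparisons, the Hamp2 share difference ran from -12.3 to 8.04, -13.4 to 0.173 and -2.63 to 13.0 points, and the Ftl1 share difference from 2.70 to 3.75, 1.37 to 2.44 and 0.590 to 1.82 points. Leaving out a mouse also turned the sign of uncalled log2 fold changes, which ranged in VSG against Sham-Ad lib from -0.99 to 0.53 for Hamp, -0.030 to 0.11 for Tfr2, -0.29 to 0.065 for Slc39a14 and -0.076 to 0.093 for Fth1, and in Sham-WM against Sham-Ad lib from -0.56 to 0.86 for Hamp2, -0.23 to 0.0098 for Trf and -0.095 to 0.0090 for Ftl1. DESeq2 called 1202 genes and 1 member in VSG against Sham-Ad lib and 1445 genes in Sham-WM against Sham-Ad lib. Without a filter VSG against Sham-Ad lib had 628 genes and 1 member, and Fth1 was at -0.017. With at least 10 counts in every library it had 0 genes. With only the groups compared it had 0 genes, and Sham-WM against Sham-Ad lib had 1399 genes and 2 members. RUVr with 2 factors gave 3034, 2188 and 5513 genes, 2 and 3 members against Sham-Ad lib in VSG and Sham-WM, and -0.052 for Hamp in VSG against Sham-Ad lib, which summing Hamp and Hamp2 put at -0.056. RUVs with 2 factors gave 8, 1724 and 524 genes, with 2 members in Sham-WM against Sham-Ad lib and 1 in VSG against Sham-WM. It turned the sign in VSG against Sham-Ad lib of Hamp (-0.86), Hamp2 (0.31), Tfr2 (-0.10), Steap4 (-0.33) and Fth1 (-0.020), in Sham-WM against Sham-Ad lib of Trf (0.19), and in VSG against Sham-WM of Hamp2 (0.80), Trf (-0.038), Steap4 (-0.023) and Socs3 (-0.053). The cause was not tested.

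Grouping by the second label field left 0 genes and 0 members in each comparison and turned the sign of 31 log2 fold changes. In VSG against Sham-Ad lib these were Hamp (-0.56), Tfrc (-1.44), Tfr2 (-0.17), Slc39a14 (0.043), Fth1 (-0.065) and Ftl1 (-0.11). In Sham-WM against Sham-Ad lib they were Hamp (-0.0094), Hamp2 (0.42), Tfrc (-1.12), Tfr2 (0.0093), Steap4 (1.27), Slc39a14 (0.34), Slc40a1 (0.10), Il6ra (0.43), Serpina3n (0.028) and Il1rn (0.88). In VSG against Sham-WM they were Tfr2 (-0.18), Steap4 (-0.25), Slc39a14 (-0.30), Bmp2 (0.51), Bmp6 (0.0047), Acvr2a (0.091), Smad5 (0.069), Socs3 (-0.87), Cp (-0.0093), Ncoa4 (0.040), Hpx (-0.082), Hscb (-0.15), Fgb (-0.17), Lbp (-0.014) and Serpina3n (-0.042). The Hamp2 share differences became 5.73, 5.79 and -0.0524 points and the Ftl1 share differences against Sham-Ad lib -0.478 and -0.980 points. Smad7, named after its values were seen, was at -0.31 in Sham-WM against Sham-Ad lib under this grouping. Changes in size factors moved no call of a member. The design limits what can be seen: 4 mice a group, and hepcidin levels that differ by several fold within a group.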
